A study of Bos taurus with 81 samples.

Results

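H3K4me3 in the bovine morula was compared with H3K4me3 in the whole blastocyst, using the 2 morula (MO) and 2 blastocyst (BL) libraries out of the 81 libraries of the series. H3K4me3 is trimethylation of lysine 4 of histone H3. CUT&Tag was the assay: a transposase guided by an antibody inserts tags beside the mark, and the tagged DNA is sequenced. Oocytes from abattoir ovaries were fertilised and cultured in vitro, and the embryos used here had received no drug treatment. Morulae were collected 122 h and blastocysts 172 h after insemination, and a library was made from pooled embryos holding about 1000 to 1500 blastomeres. The mark's later distribution was read in 2 H3K4me3 libraries of the inner cell mass (ICM), freed by immunosurgery, and 2 of the trophectoderm (TE), cut from blastocysts with a micro-scalpel. Its earlier distribution was read in 2 libraries each of germinal vesicle oocytes (GV), 2-cell (2C), 4-cell (4C) and 8-cell (8C) embryos. The same 8 groups had 2 libraries each for H3K27ac, H3K27me3 and H3K9me3, and ATAC-seq, which tags open chromatin, had 3 libraries each of BL, ICM and TE. Nothing in the labels says that replicates came from separate collections of embryos, so p-values measure only the spread between these libraries, which may be technical.

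H3K4me3 is laid down by COMPASS-family methyltransferases at the start sites of active and poised genes, above all at CpG islands, and broader stretches of it are known from strongly transcribed genes and from oocytes. H3K27ac marks active promoters and enhancers, H3K27me3 is the mark of Polycomb repressive complex 2, and H3K9me3 is a mark of heterochromatin. Between the morula and the blastocyst the embryo separates its first lineages, the TE, which builds the fetal side of the placenta, and the ICM, from which the fetus, primitive endoderm and their derivatives arise.

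The authors deposited 1 peak list per library, on the ARS-UCD1.2 build. No annotation of that build was used here, so regions are given by position and were not assigned to genes, and the lineage markers could not be checked by expression. On autosomes 1 to 29 the MO lists held 27341 and 28326 peaks and the BL lists 34694 and 37659, so both BL lists were longer in peaks. They covered 43.4 and 48.1 Mb in MO against 46.4 and 50.4 Mb in BL, means of 45.8 ± 3.35 and 48.4 ± 2.85 Mb (SD, n = 2 each), and these ranges overlapped (log2 difference 0.08, two-sided exact permutation p = 0.667). With 2 libraries against 2 such a test cannot go below 0.333. BL lists held more short peaks, with 19910 and 21728 of 1 kb or less against 11213 and 10813 in MO, and mean peak width was 1643 ± 79.2 bp in MO and 1337 ± 1.25 bp in BL. At the other end, peaks of 5 kb or more numbered 403 and 648 in MO and 716 and 784 in BL, and their share of the covered length was 5.81% and 8.51% in MO and 10.1% and 10.2% in BL. BL was thus above MO in both short and broad peaks without a separable change in total length (exact permutation p = 0.333 for peak number, mean width, broad peak number and broad share). The lists give no read totals, so sequencing depth is unknown.

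The autosomes were divided into 2488055 bins of 1 kb, and a bin was called marked where peaks covered at least 50% of it. In at least 1 of the 4 lists 66798 bins were marked, 2.68% of all bins. Marked in both MO and both BL lists, and here called kept, were 31945 bins (47.8%). Another 6269 bins (9.39%) were marked in both MO lists and in neither BL list and are called lost, and 7516 bins (11.3%) were marked in both BL lists and neither MO list and are called gained. In the remaining 21068 bins (31.5%) the replicates differed, 12218 bins within MO and 10439 within BL. Kept bins made up 77.9% of the 41005 bins marked in both MO lists and 74.3% of the 42990 marked in both BL lists. Lost bins were 15.3% of the first set and gained bins 17.5% of the second.

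**Figure D1:**
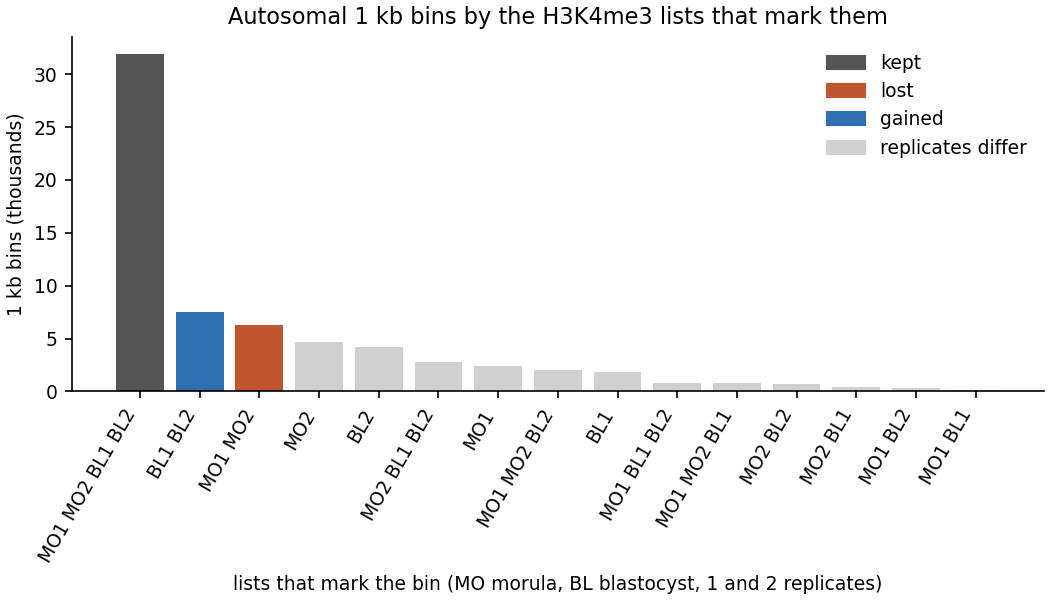
Number of autosomal 1 kb bins (vertical axis, in units of 1000) marked by H3K4me3 in each combination of the 4 lists, with kept, lost and gained bins coloured. The 31945 kept bins form the tallest bar, followed by the 7516 gained and 6269 lost bins, and no combination in which replicates differ holds more bins than MO replicate 2 alone with 4712.

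Of the gained bins, 4773 (63.5%) had no base under a peak in either MO list, and of the lost bins 3260 (52.0%) had none in either BL list. More than 50% of each class thus had no peak at all in the other stage, and the rest had partial coverage there. Leaving out MO replicate 1 raised the lost count to 10981, and leaving out BL replicate 1 raised the gained count to 11706, since a bin then had to be marked in 1 library of that stage only. Of bins chosen as gained from BL replicate 1 alone, 80.1% were marked in BL replicate 2, and of those chosen from BL replicate 2 alone, 64.2% were marked in replicate 1. For lost bins these shares were 72.4% from MO replicate 1 and 57.1% from MO replicate 2. Marked bins in general recurred more often. Of the 46147 bins marked in BL replicate 1 and the 50272 in BL replicate 2, 42990 were marked in both. Of the 44676 in MO replicate 1 and the 49552 in MO replicate 2, 41005 were marked in both.

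Most gained bins fell into 2 settings, which were separated by merging the peaks of the 4 lists into sites. In the first, 4000 gained bins (53.2%) lay in a site that also held a peak in all 4 lists, which puts them at the flanks of, or in gaps within, a place already marked in MO. In the second, 3133 (41.7%) lay in sites without any MO peak. For lost bins the corresponding counts were 2891 (46.1%) in shared sites and 2614 (41.7%) in sites without any BL peak. The remaining 383 gained and 764 lost bins lay in sites with a peak of the other stage but not of all 4 lists. Gained bins were closer to kept ones: 37.1% of them adjoined a kept bin and 74.0% lay within 10 kb of one, at a median distance of 2 kb. Of lost bins 28.6% adjoined a kept bin and 52.2% lay within 10 kb, at a median distance of 9 kb. Runs of 3 or more neighbouring bins numbered 373 among gained bins, the longest 10 kb, and 153 among lost bins, the longest 7 kb.

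The bins gained by the blastocyst were found mainly in the TE. The 2 TE lists marked 75.8% and 73.1% of gained bins, and the 2 ICM lists 30.2% and 33.0%. Every TE library was above every ICM library by more than 40 percentage points. Kept bins were marked in 94.8% and 94.5% in TE and in 91.1% and 91.9% in ICM, close to each other. Lost bins were marked in 13.7% and 11.6% in TE and in 12.7% and 13.0% in ICM, and these ranges overlapped. In a whole blastocyst library, a smaller number of cells of one lineage and less mark per cell cannot be told apart.

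Asking for agreement of both libraries of a lineage, 2907 gained bins (38.7%) were marked in TE only, 345 (4.59%) in ICM only, 1102 (14.7%) in both lineages and 678 (9.02%) in neither, while in 2484 (33.0%) the replicates of a lineage disagreed. Among all bins marked in both BL lists the shares were 10.7% in TE only, 2.55% in ICM only and 67.8% in both lineages. The kept bins, by contrast, were marked in both lineages in 83.5% of cases, in TE only in 3.42% and in ICM only in 1.78%. The loss was shared by the lineages: 4272 lost bins (68.1%) were marked in neither ICM nor TE, compared with 12.0% of all bins marked in both MO lists. Only 69 lost bins (1.10%) were marked in both lineages. Gained bins in sites without a MO peak were TE only in 48.0% and in both lineages in 6.77%, and those in shared sites were TE only in 31.4% and in both lineages in 21.2%. Of lost bins in sites without a BL peak, 89.0% were marked in neither lineage.

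The other 2 active-chromatin assays placed gained and lost bins differently in the lineages. ATAC peaks marked 52.8%, 59.2% and 50.8% of gained bins in the 3 TE libraries and 35.6%, 42.6% and 35.2% in the 3 ICM libraries, so TE was higher without overlap. H3K27ac marked 54.4% and 56.7% of gained bins in TE and 59.5% and 55.5% in ICM, which overlapped. At lost bins H3K27ac was higher in ICM without overlap, at 40.7% and 37.8% against 15.9% and 14.5% in TE. ATAC marked 44.7%, 55.5% and 44.3% of lost bins in ICM and 36.8%, 44.9% and 35.1% in TE, with a higher mean in ICM but overlapping ranges. Bins that had lost H3K4me3 by the blastocyst were thus often open chromatin in the isolated lineages, and more of them carried H3K27ac in the ICM than in the TE. At kept bins H3K27ac was also higher in ICM, 78.1% ± 2.62 against 55.7% ± 2.03 in TE (SD, n = 2 each), and ATAC was similar, 79.1% ± 2.94 against 78.7% ± 2.87 (SD, n = 3 each). The ICM H3K27ac lists, however, marked more of all autosomal bins than the TE lists. Set against all bins of the same library, the kept-bin share was lower in ICM, 19.7 ± 0.323 against 23.8 ± 0.0301 times. So was the gained-bin share, 14.5 ± 0.00614 against 23.7 ± 0.198 times. The lost-bin share stayed higher in ICM, 9.90 ± 0.0224 against 6.49 ± 0.655 times (SD, n = 2 each).

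These differences were tested jointly, as TE mean minus ICM mean in percentage points, summed over H3K4me3, H3K27ac and ATAC, over all 720 arrangements of the libraries within assays. For gained bins the sum was 57.3 points (42.8 from H3K4me3, -1.96 from H3K27ac and 16.5 from ATAC; two-sided exact permutation p = 0.0139, 0.0375 after Benjamini-Hochberg adjustment over the 3 bin classes). For lost bins it was -33.5 points (-0.23, -24.1 and -9.20; exact permutation p = 0.025, adjusted 0.0375), and for kept bins -19.7 points (3.16, -22.4 and -0.39; exact permutation p = 0.258). Both calls were lost with several replicates left out. Leaving out ICM or TE replicate 1 or 2 removed its H3K4me3, H3K27ac and ATAC libraries together, and replicate 3 its ATAC library only. Fewer than 720 arrangements then remained, so p-values without an ICM or TE replicate are not directly comparable with those of all libraries. With MO replicate 2, BL replicate 2, ICM replicate 1 or 2, or TE replicate 1, 2 or 3 left out, the adjusted exact permutation p was between 0.05 and 0.133 for gained bins and between 0.05 and 0.117 for lost bins, with sums of 41.3 to 59.1 and -34.8 to -30.5 points. The lists differ in length between lineages, H3K4me3 covering 37.7 and 38.5 Mb in ICM and 46.7 and 44.9 Mb in TE, and H3K27ac marking 3.97% ± 0.198 of all bins in ICM and 2.34% ± 0.0886 in TE (SD, n = 2 each). With each assay's lists trimmed to one covered length the sums were 55.8 points for gained and -31.0 for lost bins (adjusted exact permutation p = 0.00417 for both), and the kept-bin sum of -14.9 then also passed (0.0222). Neither gained nor lost bins passed when 90% coverage was required to mark a bin (adjusted exact permutation p = 0.138) or with the better-scored 50% of each list's peaks (0.0667). Measured against the kept bins of the same libraries, they were 77.0 points (adjusted exact permutation p = 0.00556) and -13.9 points (0.00833).

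**Figure D2:**
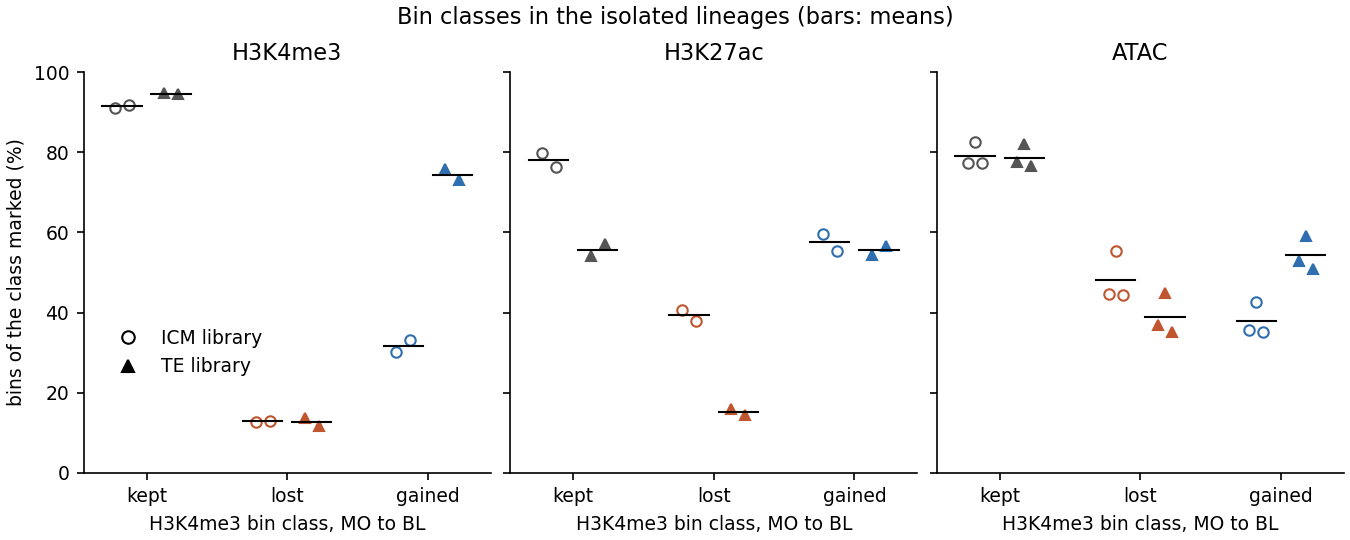
Percentage of kept, lost and gained H3K4me3 bins (horizontal axis) marked in each ICM library (open circles) and TE library (filled triangles) by H3K4me3, H3K27ac and ATAC, with bars for the group means. In the H3K4me3 panel the gained bins stand at 30.2% and 33.0% in ICM and 75.8% and 73.1% in TE, while at lost bins the lineages separate in the H3K27ac panel.

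The gained bins assigned to a lineage by H3K4me3 also differed in the assays that had no part in that assignment. The 2907 TE-only bins were marked by H3K27ac in 72.1% and 74.5% in TE and in 50.0% and 45.3% in ICM, and by ATAC in 64.6%, 70.3% and 62.0% in TE and 29.5%, 37.3% and 29.9% in ICM. TE was higher in every library of both assays. The 345 ICM-only bins were marked by H3K27ac in 80.6% and 78.8% in ICM and in 11.9% and 14.5% in TE, and by ATAC in 36.2%, 42.9% and 35.9% in ICM and 17.4%, 24.6% and 16.2% in TE. H3K27me3 was distributed the other way round. It marked the TE-only bins in 11.6% and 12.0% in ICM and 4.09% and 4.68% in TE, and the ICM-only bins in 4.06% and 3.48% in ICM and 16.8% and 17.1% in TE. These values are descriptions, and no test of them was made.

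The other marks at these bins were followed from MO to BL in whole embryos. H3K27ac marked 58.7% and 59.7% of lost bins in MO and 21.7% and 23.6% in BL, a decrease far beyond the replicate spread. Over all autosomal bins it went from 4.54% and 4.74% to 1.91% and 2.15%, and at kept bins from 64.1% and 63.0% to 53.9% and 56.5%. At gained bins H3K27ac moved against this, from 37.9% and 32.3% to 45.3% and 47.8%. Polycomb's H3K27me3 marked 20.5% and 20.0% of lost bins in MO and 32.4% and 32.8% in BL, within a rise over all bins from 6.55% and 6.00% to 10.9% and 11.3%. At gained bins it was lower in BL, 8.18% and 7.74% against 11.4% and 10.9% in MO. H3K9me3 marked 7.85% and 9.81% of lost bins in MO and 15.4% and 18.5% in BL, while over all bins it was 4.58% and 5.76% in MO and 4.03% and 5.38% in BL. Set against all autosomal bins of the same library, the share at lost bins changed little for H3K27ac, from 12.8 ± 0.244 times that of all bins in MO to 11.2 ± 0.265 times in BL, and for H3K27me3, from 3.23 ± 0.148 to 2.94 ± 0.0505 times. For H3K9me3 it rose from 1.71 ± 0.00819 to 3.63 ± 0.285 times (SD, n = 2 in each group). At lost bins the changes of H3K27ac and H3K27me3 were thus close to those over the whole genome, and that of H3K9me3 was not. At gained bins the H3K27ac share rose from 7.58 ± 1.09 to 22.9 ± 1.03 times that of all bins, as it did at kept bins, from 13.7 ± 0.604 to 27.2 ± 1.38 times, and the H3K27me3 share went from 1.78 ± 0.0568 to 0.718 ± 0.0467 times.

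Bin by bin, with agreement of both libraries of each stage required, H3K27ac was lost in 30.2% of the lost bins, 8.52% of kept bins and 1.99% of all autosomal bins. Few of all bins had H3K27ac to lose: where both MO lists had it and the BL lists agreed, it was lost in 61.3% of lost bins and 61.7% of all bins, a share at the background, against 16.4% of kept and 15.6% of gained bins. It was gained in 12.9% of the gained bins, 2.81% of kept bins and 0.273% of all bins. H3K27me3 was gained in 10.7% of lost bins, 1.53% of gained bins and 4.18% of all bins. H3K9me3 was gained in 6.75% of lost bins, 1.00% of gained bins and 1.20% of all bins. Tested jointly over the 3 marks as the sum of the absolute differences between MO and BL (216 arrangements of the libraries, smallest possible p 0.037), the sum was 57.0 points for lost bins (36.5 lower for H3K27ac, 12.3 higher for H3K27me3 and 8.12 higher for H3K9me3; exact permutation p = 0.037, adjusted 0.0741). For gained bins it was 15.0 points (exact permutation p = 0.0741, adjusted 0.0741), so neither passed 0.05 after adjustment over the 2 bin classes.

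**Figure D3:**
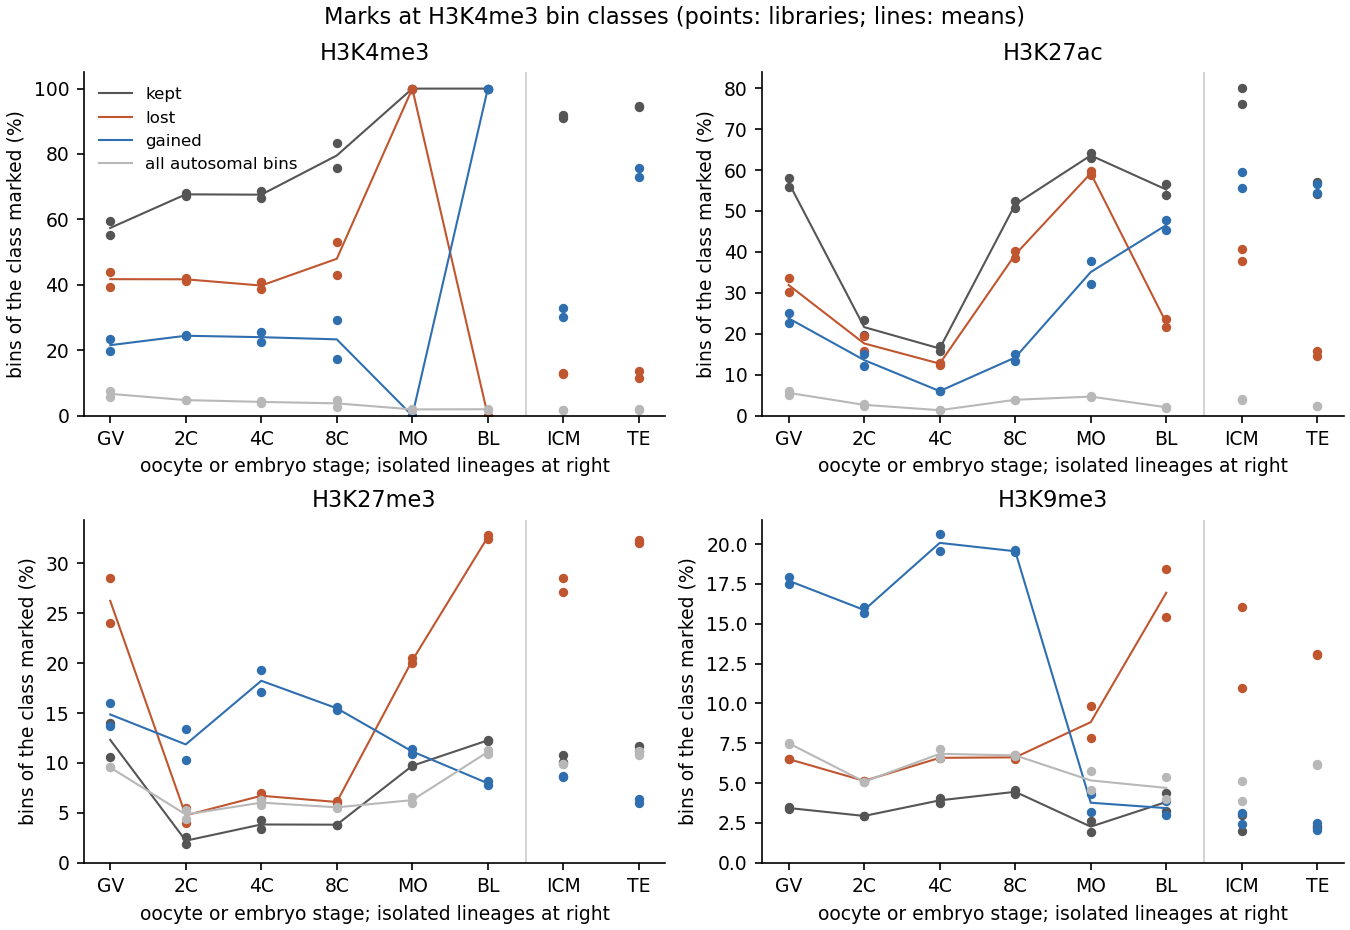
Percentage of kept, lost, gained and all autosomal bins (vertical axes, scaled separately per panel) marked by each histone mark from GV to BL and, right of the grey line, in ICM and TE, with a point per library and lines through the means. In the H3K4me3 panel the MO and BL values follow from how the bins were chosen; elsewhere lost bins fall in H3K27ac and rise in H3K27me3 from MO to BL as all bins do, rise in H3K9me3, and gained bins drop in H3K9me3 from 19.5% and 19.6% at 8C to 3.21% and 4.34% at MO.

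Before the morula, gained bins had the sparsest H3K4me3 history of the 3 classes. In none of the 8 lists from GV to 8C were 56.1% of gained bins marked (4219 bins), against 34.8% of lost bins, 11.2% of kept bins and 89.4% of all autosomal bins. In all 8 lists 7.62% of gained, 22.8% of lost, 41.1% of kept and 1.40% of all bins were marked. At 8C, the stage before MO, the 2 lists marked 17.4% and 29.2% of gained bins, 42.9% and 53.0% of lost bins and 75.8% and 83.3% of kept bins, the same order in both. Of the lost bins 44.8% were marked in neither 8C list and both MO lists, and 40.7% in both lists of both stages. Among all bins marked in both MO lists these shares were 20.7% and 67.3%, and among kept bins 14.9% and 74.0%. The first of the lost groups was thus marked in both MO lists and unmarked in both 8C and both BL lists. Unmarked bins can still be partly covered by peaks, so this does not show that H3K4me3 was absent there.

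Many gained bins had carried H3K9me3 until the 8-cell stage. H3K9me3 marked 19.5% and 19.6% of gained bins at 8C and 3.21% and 4.34% at MO, while over all bins it marked 6.76% and 6.73% at 8C and 4.58% and 5.76% at MO. Marked in both 8C lists and in neither MO list were 1160 gained bins, 15.4% of them, against 2.90% of kept, 4.04% of lost and 3.88% of all bins. These were 1.20% of the 96478 bins with that H3K9me3 change, where gained bins make up 0.302% of all bins. Most of the 1160 also had H3K27me3 in cleavage, in 86.3% and 82.9% at 4C, falling to 5.60% ± 0.122 at MO (SD, n = 2). The 96478 bins as a whole shared that state, with H3K27me3 in 77.3% and 72.8% at 4C. In BL, ATAC marked 73.0% ± 12.6 of the 1160 bins, 53.8% ± 9.82 of all gained bins (SD, n = 3 each) and 7.49% to 16.6% of the 96478. H3K27ac marked 66.2% ± 1.16 of the 1160 (SD, n = 2), 45.3% and 47.8% of all gained bins and 5.65% to 6.27% of the 96478. Most of the distance from the 96478 bins was therefore shared by gained bins in general. No test of these shares was made.

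Where all 4 lists had a peak in a site, widths did not shift in one direction. There were 17754 such kept sites among 42202 merged sites, and the width of a site in a library is the number of its bases under that library's peaks. Median width was 1850 and 2000 bp in MO and 1900 and 2000 bp in BL, with full overlap (difference of the library medians 0.02 on the log2 scale, exact permutation p = 1.0). The median of the site ratios was -0.01 on the log2 scale, with quartiles of -0.29 and 0.23. Both BL widths exceeded both MO widths in 5206 sites (29.3%), both were below in 5507 (31.0%), and the stages overlapped in 7041 (39.7%). The median absolute log2 difference was 0.26 between the stage means of 2 libraries each. Between single libraries, an unlike and noisier measure, it was 0.15 for the MO replicates and 0.12 for the BL replicates. Bases added at wider sites came to 4.43 Mb and bases removed at narrower ones to 3.51 Mb. Broad sites were more frequent in BL: 666 and 877 kept sites reached 5 kb in MO, and 1024 and 1076 in BL. BL sites were also more often broken into several peaks, at 1.27 and 1.24 peaks per site against 1.16 and 1.13. The 7290 sites peaked in both BL lists and no MO list were short, with a median of 650 bp, as were the 3371 with peaks in both MO lists and none in BL, with a median of 1000 bp.

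A limma fit of log2 width over all 17754 kept sites called 1011 sites wider in BL (5.69%) and 726 narrower (4.09%) at a Benjamini-Hochberg adjusted p under 0.05. Widened sites had median widths of 2100 and 2150 bp in MO and 3700 and 3750 bp in BL, and a median log2 change of 0.77. Narrowed sites had median widths of 2450 and 2500 bp in MO and 1150 and 1200 bp in BL, and a median log2 change of -1.07. With each library centred on its median the fit called 1874 wider and 1889 narrower, so the excess of wider over narrower sites depends on the scaling. The calls rest on all 4 libraries: with any 1 of them left out, limma, with the lone library assumed to vary like the other stage, called no site in either direction, although 1515 to 3758 wider and 1636 to 3116 narrower sites had an unadjusted p under 0.05.

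The isolated lineages, which the fit did not use, showed the widened sites to be wide mainly in TE. Median widths there were 3450 and 3450 bp in TE and 2550 and 2700 bp in ICM. Both TE widths exceeded both ICM widths in 68.3% of widened sites, against 35.6% of all kept sites. Narrowed sites were narrow in both lineages, with medians of 1200 and 1200 bp in ICM and 1250 and 1125 bp in TE. H3K27ac was present in both lists of a stage in 79.4% of widened sites in MO and 90.6% in BL, whereas in narrowed sites it went from 72.7% to 49.9% and over all kept sites from 73.8% to 68.0%. H3K27me3 was present in 22.9% of narrowed sites in MO and 41.3% in BL, in widened sites in 13.5% and 7.91%, and over all kept sites in 13.4% and 17.8%. Here any covered base counted as presence. In BL more widened sites thus held H3K27ac and fewer held H3K27me3, and the reverse was true of narrowed sites. Single sites named below did not follow these changes. The widened site on chromosome 20 had H3K27me3 in every MO and BL list and H3K27ac in none. Narrowed sites on chromosomes 3, 7 and 16 held H3K27ac in every MO and BL list and H3K27me3 in none. The narrowed site on chromosome 24 held H3K27ac in both MO lists and in BL replicate 2 only. These shares were not tested.

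**Figure D4:**
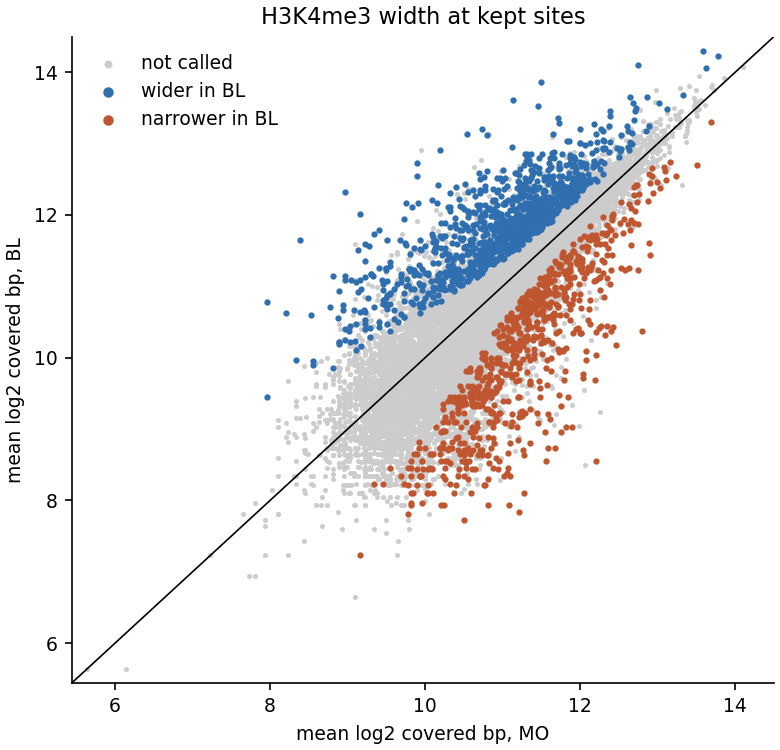
Mean log2 width in MO (horizontal axis) and BL (vertical axis) of the 17754 kept sites, with sites called by limma coloured and the diagonal marking equal width. The 1011 sites called wider lie above and the 726 called narrower below a cloud centred on the diagonal, where the median site ratio was -0.01.

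The sites called by limma with the largest widening were small marks in MO that became kilobase-wide in BL. On chromosome 24, 48696301 to 48701600, H3K4me3 covered 500 and 500 bp in MO, 5300 and 4900 bp in BL, 5050 and 5050 bp in TE and 700 and 600 bp in ICM (log2 change 3.35, SE 0.09, limma adjusted p = 0.0198). On chromosome 2, 128220851 to 128224350, it covered 250 and 450 bp in MO, 3200 and 3200 bp in BL, 2900 and 3150 bp in TE and no base in ICM (log2 change 3.25, SE 0.34, limma adjusted p = 0.0299). On chromosome 20, 71606601 to 71610800, it covered 500 and 650 bp in MO, 4100 and 4200 bp in BL, 4200 and 4100 bp in TE and again no base in ICM. The large gap between MO and BL at these sites follows from the ranking by that change. At all 3 sites TE, which had no part in the ranking, had the BL width while ICM did not. On chromosome 10, 81521501 to 81528400, widths were 750 and 1200 bp in MO, 6750 and 6750 bp in BL, 6700 and 6800 bp in TE and 700 and 2000 bp in ICM. On chromosome 7, 11783401 to 11785600, they were 250 and 250 bp in MO, 1400 and 2200 bp in BL, 1800 and 1950 bp in TE and 1050 and 950 bp in ICM, the smallest gap between lineages of the 5.

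The sites with the largest narrowing kept 400 bp or less in BL, and their gap between MO and BL likewise follows from the ranking. On chromosome 3, 105803401 to 105808300, H3K4me3 covered 4800 and 4650 bp in MO, 350 and 400 bp in BL and no base in any ICM or TE library (log2 change -3.66, SE 0.12, limma adjusted p = 0.0198). On chromosome 24, 62171451 to 62173750, it covered 2050 and 2300 bp in MO, 300 and 200 bp in BL and no base in ICM or TE. On chromosome 16, 63892401 to 63895350, it covered 2550 and 2400 bp in MO, 250 and 300 bp in BL, and 500 bp in 1 ICM library only. These 3 sites were all but empty in both lineages. On chromosome 7, 71774001 to 71777100, widths were 2950 and 3100 bp in MO, 400 and 350 bp in BL, 550 and 900 bp in ICM and 0 in both TE libraries. On chromosome 20, 70032451 to 70034900, they were 2450 and 2300 bp in MO and 350 and 150 bp in BL, with 500 and 0 bp in ICM and 650 and 0 bp in TE, so replicates of each lineage differed.

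Gains and losses were also taken at base resolution, as unbroken stretches under peaks of both lists of one stage and of neither list of the other. There were 20139 gained stretches of 7.92 Mb in all, 274 of them 2 kb or longer, and 16853 lost stretches of 5.83 Mb, 67 of them 2 kb or longer. The longest gained stretch was 6.7 kb on chromosome 5, 27002751 to 27009450, part of a site with peaks in all 4 lists. Both TE lists covered all of it, ICM at most 1% of it, and H3K27ac covered 60% and 37% in MO and 100% in both BL and both TE lists. It had been covered to 50% and 60% by H3K4me3 in GV and to 2% and 7% at 8C, and no MO list covered a base of it. The next was 6.65 kb on chromosome 16, 80502501 to 80509150, in a site without MO peak. It was covered entirely by both H3K9me3 and H3K27me3 in every list from GV to 8C and by neither from MO on, and it was 98% and 100% covered by H3K4me3 in TE and 16% and 31% in ICM.

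Each of the 10 longest gained stretches was covered to at least 91.8% in both TE lists, and 7 of the 10 to less than 50% in both ICM lists. The 2 that exceeded 50% in both ICM lists lay on chromosome 16, 79499651 to 79505150, at 86% and 89%, and on chromosome 17, 72187551 to 72192700, at 76% and 91%. In 6 of the 10, H3K9me3 and H3K27me3 each covered at least 50% in both 4C lists, and none of these 6 had an H3K9me3 base in any MO, BL, ICM or TE list. H3K27ac covered at least 50% in both BL lists in 9 of the 10 and in both MO lists in 2. The remaining 6 stretches were on chromosome 25, 27227801 to 27233900, chromosome 10, 81521551 to 81527100, inside the widened site named above, chromosome 19, 56662051 to 56667450, chromosome 2, 126777051 to 126782400, chromosome 17, 72908901 to 72914200, and chromosome 26, 20868251 to 20873500. Besides the stretch on chromosome 5, those on chromosome 2 and at 72908901 on chromosome 17 carried H3K4me3 in every list from GV to 8C, over 23% to 86% of their length.

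Of the 10 longest lost stretches, 9 had no H3K4me3 base in any ICM or TE list. The exception was the longest, 5.15 kb on chromosome 29, 28331751 to 28336900, which was covered to 20% and 28% in ICM and to 0% in TE. Its H3K27ac went from 93% and 98% in MO to 9% and 0% in BL, and H3K27me3 covered none of it in MO and all of it in both BL and both TE lists but none in ICM. On chromosome 3, 83581201 to 83584800 (3.6 kb), H3K27me3 instead covered the whole stretch in both ICM lists and none in TE. The stretch on chromosome 22, 3534401 to 3538200 (3.8 kb), and that on chromosome 3, 65898301 to 65901400 (3.1 kb), were under H3K9me3 over their whole length in MO, together with H3K4me3. In both BL lists H3K9me3 covered all of the chromosome 3 stretch and none of the chromosome 22 stretch. The latter was covered to 89% and 68% in ICM. H3K27ac covered at least 50% of 9 of the 10 in both MO lists and of none in both BL lists. The others lay on chromosome 7, 15959701 to 15964150 and 42217951 to 42221700, chromosome 26, 24246151 to 24249650, chromosome 2, 117225151 to 117228500, chromosome 21, 27293001 to 27296200, and chromosome 10, 21867601 to 21870600.

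**Figure D5:**
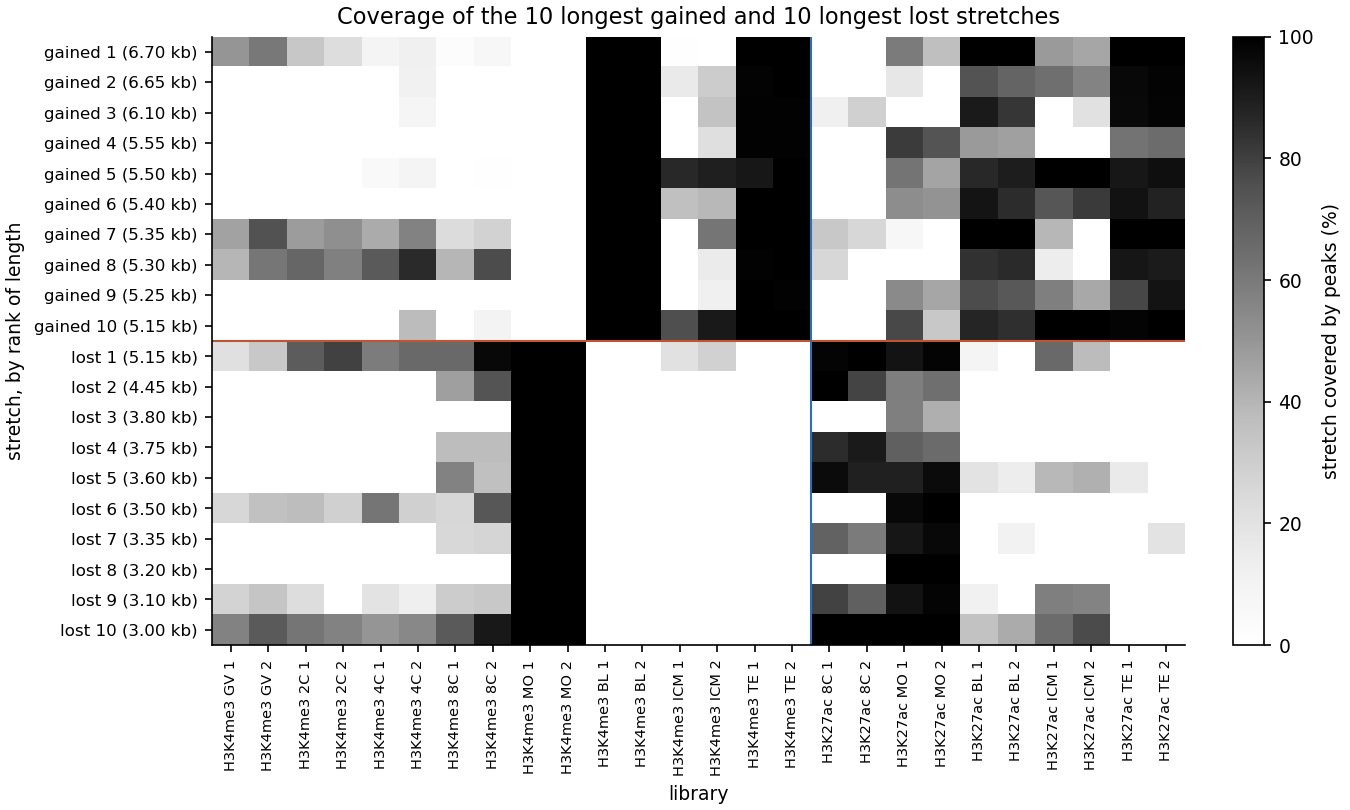
Percentage of each of the 10 longest gained (upper rows) and 10 longest lost (lower rows) stretches covered by peaks, in grey from 0 to 100, for every H3K4me3 library (left block) and for H3K27ac from 8C on (right block). The MO and BL columns of H3K4me3 follow from the choice of stretches; the TE columns are dark in all 10 gained rows, and 9 of 10 lost rows are white in both ICM and TE.

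Gains were spread over all autosomes. As a share of the bins marked in any of the 4 lists they were highest on chromosome 22 (16.4%), 16 (15.2%) and 29 (13.9%) and lowest on 27 (8.66%), while the lost share was highest on 27 (14.7%) and lowest on 25 (6.19%). In the last 10% of the length of each chromosome, in the direction of the coordinates, lay 20.4% of gained bins, 15.1% of kept, 14.3% of lost and 10.0% of all bins. For the gained bins with H3K9me3 at 8C and not at MO the share was 36.2%, and for all bins with that H3K9me3 change 27.6%.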

How the data were processed

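Per the submitters' processing notes, the tools were SICER, SAMtools 1.9, Picard 2.26.10, the aligner BWA 0.7.9a, and cutadapt 1.8.3 with Trim Galore 0.4.0, on ARS-UCD1.2. The deposited lists are named for epic2, so the caller is not settled, and for its cutoff, control and duplicate handling nothing is given in the sources used here. The authors deposited each peak as a start and end in base pairs and a whole-number score whose meaning the lists do not give. The score was used only to rank peaks within a list. Peak edges lay on a grid of 50 bp in the H3K4me3, H3K27ac and ATAC lists, and coordinates are printed with the first base as 1. Depth is unknown, so no counting interval is given.

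Libraries were grouped by their titles, and 73 of the 81 were used; 8-cell embryos grown with α-amanitin were left out. Overlaps were computed with Python 3.11.15 and NumPy 2.4.6, widths fitted with limma 3.58.1 in R 4.3.3 (trended prior, Benjamini-Hochberg adjustment over all kept sites), and shares compared by exact permutation of libraries within assays. The scripts were tested on simulated data. Regions named are the 10 longest gained and 10 longest lost stretches and, among called sites, the 5 with the largest widening and narrowing. Alternatives covered the 50% coverage rule, the better-scored 50% of each list's peaks, equal covered length, joined peaks, the single peak at a site's core, added X peaks, a fit with ICM and TE, a replicate block and each replicate left out. The comparison, its classes and its lists were chosen with earlier results of these data known.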

Additional observations from a re-analysis of the deposited data

Results flagged for a closer look

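Peaks on unplaced scaffolds, which entered no comparison, moved against those on the chromosomes. The MO lists held 735 and 616 such peaks and the BL lists 279 and 294, without overlap, while the autosomal peak number was higher in both BL lists. With 2 libraries against 2 the exact permutation p was 0.333, the smallest possible, and the covered length was 0.617 ± 0.0377 Mb in MO and 0.221 ± 0.0133 Mb in BL (SD, n = 2 each).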

How the results depend on the processing

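Values here come from the alternatives listed under processing; without a statement otherwise, direction and call did not change. Marking a bin by any covered base gave 49180 kept and 13875 gained bins. Requiring 90% gave 17824 kept, 3422 lost and 4401 gained, and TE minus ICM sums of 47.2 (gained) and -25.0 (lost), whose adjusted exact permutation p rose to 0.138. The better-scored 50% of each list's peaks gave 2810 lost bins and 314 narrowed sites, and sums of 46.3 and -26.8 (adjusted exact permutation p = 0.0667). Equal covered length brought the kept-bin sum to -14.9 (adjusted exact permutation p = 0.0222). With single replicates left out, kept bins numbered 32728 to 34681, lost bins 7052 to 10981 and gained bins 8309 to 11706. The TE minus ICM sums were then 41.3 to 59.1 for gained bins and -35.5 to -30.5 for lost bins. Their direction held, but the call was lost in 7 of 10 settings for gained and for lost bins alike.

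The median width difference (log2, 0.0192) changed sign to -0.0187 with the single peak at the core, and ranged from -0.0562 to 0.0588 with single replicates left out. Sites called by limma were the least stable values. Centring each library on its median gave 1874 wider and 1889 narrower, joining peaks under 1 kb apart 1586 wider, the single peak at the core 420 wider and 343 narrower, and a fit with ICM and TE 1802 wider. With single replicates left out, 0 sites were called in either direction. A replicate block also left 0 wider and 0 narrower, with 2669 and 2549 at an unadjusted p under 0.05, and a median width difference of 0.0192. Site by site, the replicate 1 minus replicate 2 differences of MO and BL were uncorrelated (correlation -0.0057 over 17754 sites). That correlation cannot show a shift common to all sites. Replicate 2 covered more than replicate 1 in both stages (48.1 against 43.4 Mb in MO, 50.4 against 46.4 Mb in BL). Whether same-numbered libraries share a batch was not tested. Of the named regions none reversed. For the stretches this follows from their choice as fully covered in one stage and empty in the other, so it is no sign of stability. The named sites were chosen for the largest width changes in the same lists. Their lack of reversal is therefore no sign of stability either. The narrowed site on chromosome 20 had no width in either stage among the better-scored 50%. The cause of these changes was not tested. Unknown depth limits all counts of bins and sites.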
